A study of Mus musculus with 6 samples.

Results

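The genes described here are the transcription factor Nrf2 (*Nfe2l2*), its inhibitor *Keap1*, and 8 enzymes of antioxidant defence, most of them textbook Nrf2 targets: *Nqo1*, *Gclc*, *Gclm*, *Txnrd1*, *Prdx1*, *Sod1*, *Sod2* and *Cat*. They were chosen by name, as the table entries whose symbol equals 1 of these 10, out of 46959 entries. All 10 were expressed well above the filter on low values and entered the test. Nrf2 is held in the cytoplasm by Keap1, an adaptor that hands it to a Cul3 ubiquitin ligase for degradation. When oxidants or electrophiles modify Keap1, Nrf2 accumulates, pairs with a small Maf protein in the nucleus and binds the antioxidant response element of its target genes, so much of its control lies in the stability of the protein, which RNA-seq does not measure. Haematopoietic stem cells (HSCs) are kept largely quiescent with low levels of reactive oxygen species, and a rise of these species is known to drive them into cycle and differentiation.

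RNA-seq was done on HSCs sorted from bone marrow as CD150+ CD48- lineage- Sca-1+ c-kit+ cells, in 3 control libraries and 3 libraries of MaeaCsf1r-Cre mice. Each library came from about 2000 cells pooled from 2 mice. The mice were littermates given as 8 weeks old in the series description and as young adults of a wider age range in the study's methods. MaeaCsf1r-Cre mice carry floxed *Maea* alleles and a Cre transgene driven by the *Csf1r* promoter, which is classically used for mononuclear phagocytes, so their macrophages lose *Maea* as well as their HSCs. The control libraries are labelled only as control, and whether those mice carried Cre or floxed alleles is not given for them. The protein MAEA works within a ligase that attaches ubiquitin to other proteins. The comparison asks how the HSC transcriptome differs after *Maea* deletion by this Cre. The study also gave the antioxidant N-acetylcysteine to mice in which another Cre driver deleted *Maea* after poly I:C. It did not rescue their HSC numbers, whereas rapamycin did. That experiment touches oxidant defence but was not made in the mice sequenced here.

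The scaling of each control library rested on 33000000 to 39600000 reads and that of each MaeaCsf1r-Cre library on 44200000 to 60900000 reads, so every MaeaCsf1r-Cre library was deeper than every control library. *Maea* had 108, 116 and 123 CPM (read counts of a gene scaled to the same total in each library) in control replicates 1 to 3, against 76.9, 88.6 and 100.98 CPM in MaeaCsf1r-Cre replicates 1 to 3, which were all lower. The means were 116 and 88.8 CPM, so most of the whole-gene *Maea* signal remained. The study reports efficient deletion of *Maea* in stem and progenitor cells of these mice. The study used flow cytometry for the MAEA protein and PCR on genomic DNA of HSCs. CPM of a whole gene does not show how much of the *Maea* RNA was intact, so it does not measure the deletion. *Csf1r* was at 7.89, 3.39 and 2.31 CPM in control and at 0.37, 2.18 and 0.14 CPM in MaeaCsf1r-Cre libraries. All 10 HSC markers examined were detected, with summed levels of 1124 to 1803 CPM in control and 781 to 1467 CPM in MaeaCsf1r-Cre libraries. Of these 10, 8 had a lower mean in MaeaCsf1r-Cre libraries. Markers of other cells were also present: 10 macrophage markers summed to 48.2 to 143 CPM in control and 32.2 to 99.2 CPM in MaeaCsf1r-Cre libraries, with *Marco* at 0 in all of the latter, and 10 neutrophil and monocyte precursor markers to 76.9 to 312 CPM against 76.1 to 168 CPM. For 10 B cell markers the sums were 34.0 to 55.4 CPM against 13.9 to 27.0 CPM, with *Pax5* and *Igll1* at 0 in all 6 libraries. The 10 erythroid markers summed to 983 to 4507 CPM in control and to 1850 to 4805 CPM in MaeaCsf1r-Cre libraries. In sorted bulk cells, fewer cells of a type and less RNA per cell cannot be told apart.

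The letters of the promoters show where an antioxidant response element could lie. RefSeq promoters of GRCm38.p6, from 250 bases before to 50 bases after a gene's start, were searched on both strands for the core TGACNNNGC, and 9 of the 10 genes had an entry. The core was found in 5 of these 9 promoters (55.6%), in 16 of 76 other genes of the pathway (21.1%), and in 3781 of 27025 genes of the table (14.0%). Among the 9118 genes both tested here and in the promoter table the share was 17.2%. The 5 matches are printed because this element is what Nrf2 reads in its target genes. Each is written 5′ to 3′ on the strand of its gene, with the 9 bases of the match in capitals; where the capitals begin with GC, the core reads on the opposite strand.
Nfe2l2, chr2:75704871-75704913, minus strand: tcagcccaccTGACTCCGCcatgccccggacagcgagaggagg
Gclm, chr3:122245399-122245455, plus strand: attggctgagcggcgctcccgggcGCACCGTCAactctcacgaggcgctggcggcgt
Txnrd1, chr10:82859090-82859146, plus strand: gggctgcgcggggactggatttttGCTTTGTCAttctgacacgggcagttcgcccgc
Prdx1, chr4:116685442-116685498, plus strand: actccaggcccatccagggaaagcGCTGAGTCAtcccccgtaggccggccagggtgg
Sod1, chr16:90220682-90220738, plus strand: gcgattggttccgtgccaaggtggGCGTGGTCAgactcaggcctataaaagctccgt
The first base of the match lay 240 bases before the start of *Nfe2l2*, 134 before *Gclm*, 92 before the start used for *Txnrd1*, 133 before *Prdx1* and 56 before *Sod1*. The match of *Prdx1* also holds the AP-1 site TGAGTCA, and the other 4 hold neither TGAGTCA nor TGACTCA. The start used for *Txnrd1* lies inside the gene as GENCODE draws it. The core was not in the windows of *Keap1*, *Nqo1*, *Sod2* and *Cat*, and *Gclc* had no entry. Bases outside the windows were not searched, so these genes may hold the core elsewhere. A match is a description of the letters, not a site shown to be bound.

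None of the 10 genes differed between MaeaCsf1r-Cre and control HSCs by more than the test allows for the spread between replicates. The log2 changes of MaeaCsf1r-Cre against control (log2 fold changes of CPM + 1, given below with their standard errors, SE) ran from -0.11 for *Cat* to 0.26 for *Sod1*, with 7 of 10 above 0 and a median of 0.05. The median over all 12955 genes tested was -0.06, and 39.1% of them lay above 0. By limma's moderated test with Benjamini-Hochberg adjustment over all genes tested, 0 of the 10 had an adjusted p under 0.05, where 0.00772% of all genes did (1 gene, *BC023719*, named after its value was seen). At an unadjusted p under 0.05 the count was 0 of 10 against 3.99% of all genes (517 genes). After a correction for transcript length, 9 of the 10 lay above 0 with a median of 0.19, and so did 56.2% of the genes that have a length, whose median was 0.03. With 3 libraries a group the intervals were wide for some genes, and the narrowest, that of *Keap1*, ran from -0.20 to 0.32.

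**Figure D1:**
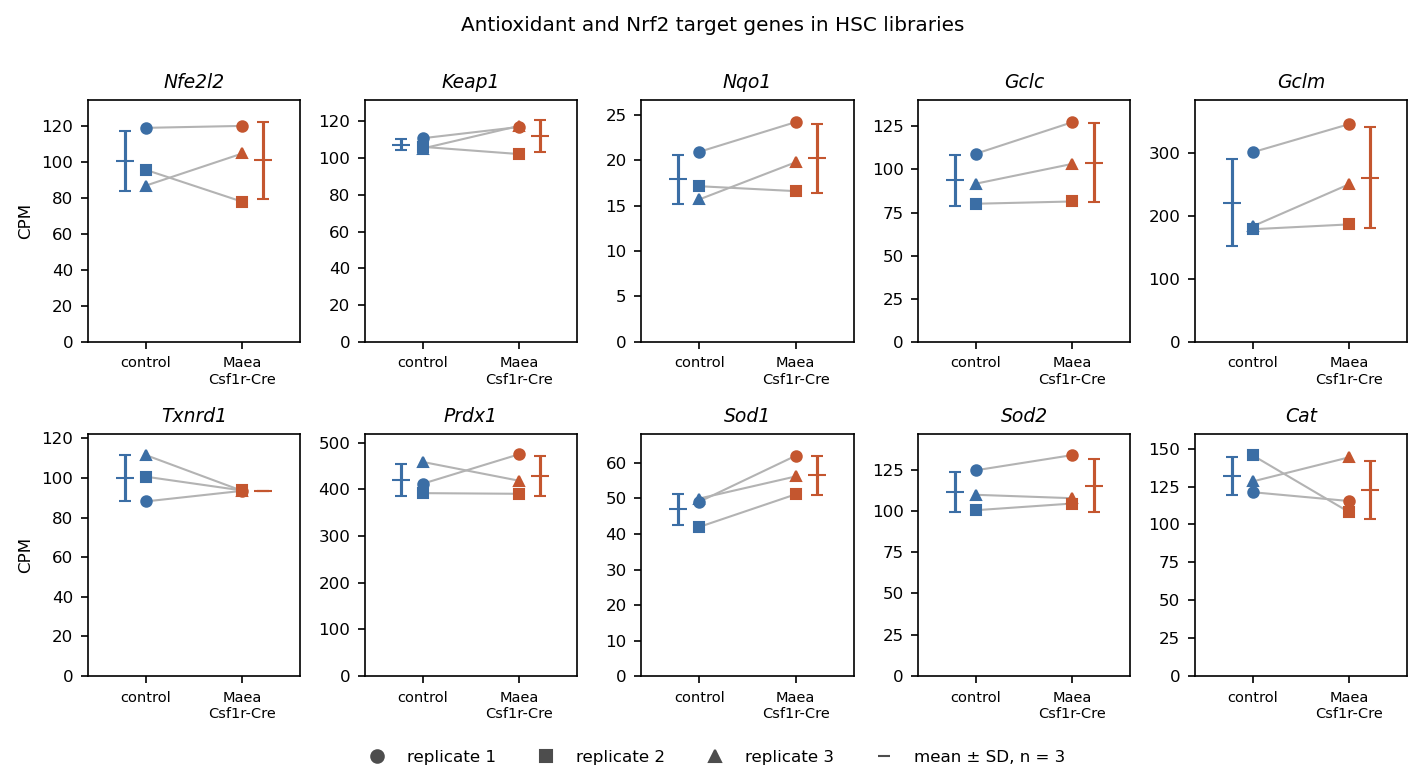
CPM of each of the 10 genes in the 3 control (blue) and 3 MaeaCsf1r-Cre (orange) libraries, on axes that start at 0; grey lines join libraries with the same replicate number and bars give the mean ± SD (n = 3). Only for *Sod1* do all MaeaCsf1r-Cre libraries (51.2 to 62.0 CPM) lie above all control libraries (42.0 to 49.99 CPM).

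The factor and its inhibitor come first. *Nfe2l2* (chr2:75675513-75704641), which encodes Nrf2, was at 119, 95.5 and 86.8 CPM in control libraries 1 to 3, and the MaeaCsf1r-Cre libraries 1 to 3 had 119.96, 77.8 and 105 CPM. The groups overlapped fully, with the lowest library of all in MaeaCsf1r-Cre and the highest in both groups being replicate 1. Its means were 100.4 ± 16.6 CPM and 100.8 ± 21.3 CPM (SD, n = 3 each), which is a log2 change of -0.0042 (SE 0.19, 95% interval -0.44 to 0.44, limma adjusted p = 0.999), and this sign turned under several of the settings given below.

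*Keap1* (chr9:21229730-21239361), the adaptor that presents Nrf2 for degradation, was at 111, 106 and 105 CPM in control and at 117, 102 and 118 CPM in MaeaCsf1r-Cre libraries. Its control libraries were the most alike of any of the 10 genes relative to their mean, and MaeaCsf1r-Cre libraries lay on both sides of them. The means were 107 ± 3.01 and 112 ± 8.68 CPM (SD, n = 3 each) and the log2 change was 0.06 (SE 0.11, limma adjusted p = 0.973). Within a library, the log2 ratio of *Keap1* to *Nfe2l2* averaged 0.11 ± 0.19 in control and 0.17 ± 0.21 in MaeaCsf1r-Cre HSCs (SD, n = 3 each), a difference of 0.06 with an exact two-sided permutation p of 0.7, where 3 against 3 libraries cannot give a p below 0.1. *Keap1* shares 510 exonic bases with the antisense RNA *Gm16754*, whose level of 2.11 to 2.97 CPM was small beside it. The library kit does not keep the strand, so reads in shared bases cannot be told apart.

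*Nqo1* (chr8:107388225-107403206), a quinone reductase and the usual reporter of Nrf2 activity, was the lowest of the 10, also per length of exon. It was at 20.9, 17.1 and 15.7 CPM in control and at 24.2, 16.6 and 19.8 CPM in MaeaCsf1r-Cre libraries, higher in 2 of 3 pairs of libraries with the same replicate number. Replicate 1 was the highest library of both groups, and the groups overlapped. The means of 17.9 ± 2.71 and 20.2 ± 3.82 CPM (SD, n = 3 each) gave a log2 change of 0.16 (SE 0.19, 95% interval -0.29 to 0.61, limma adjusted p = 0.967). About 537 reads stood behind its lowest value, a counting error of 4.32%, which is less than its spread between libraries.

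The enzyme of the first step of glutathione synthesis, glutamate-cysteine ligase, has a catalytic subunit encoded by *Gclc* and a modifier subunit encoded by *Gclm*. *Gclc* (chr9:77754535-77794485) was at 109, 80.1 and 91.8 CPM in control and at 127, 81.4 and 103 CPM in MaeaCsf1r-Cre libraries. *Gclm* (chr3:122245557-122270732) was at 301, 179 and 183 CPM in control and at 345, 186 and 249.9 CPM in MaeaCsf1r-Cre libraries. Both genes were higher in MaeaCsf1r-Cre HSCs in 3 of 3 same-numbered pairs, by little in pair 2, and both were highest in replicate 1 of either group, so that the groups overlapped.

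For *Gclc* the means were 93.7 ± 14.6 and 104 ± 23.0 CPM (SD, n = 3 each), with a log2 change of 0.14 (SE 0.19, limma adjusted p = 0.967). For *Gclm* they were 221 ± 69.2 and 260.5 ± 80.0 CPM (SD, n = 3 each), with a log2 change of 0.24 (SE 0.27, 95% interval -0.39 to 0.86, limma adjusted p = 0.967). The spread between replicates of 1 group was thus larger than the difference between the groups for both subunits. With the replicate number as a block in the model, the SE of *Gclm* fell to 0.10, with an unadjusted p of 0.0518 and a limma adjusted p of 0.363. With a correction for transcript length in addition, the log2 change of *Gclm* was 0.39 (limma unadjusted p = 0.0028, adjusted p = 0.209) and that of *Gclc* 0.25 (limma unadjusted p = 0.0258, adjusted p = 0.2999), in a fit where 13.6% of the genes that have a length had an unadjusted p under 0.05. The *Gclm* change of 0.24 moved with the single library left out, to 0.0098 without MaeaCsf1r-Cre replicate 1 and 0.48 without control replicate 1. With both libraries numbered 1 left out, it was 0.25.

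The balance of the 2 subunits was compared within each library. The log2 ratio of *Gclm* to *Gclc* averaged 1.20 ± 0.24 in control and 1.29 ± 0.13 in MaeaCsf1r-Cre HSCs (SD, n = 3 each), a difference of 0.10 (exact two-sided permutation p = 0.5, smallest possible p 0.1). *Gclm* shares 296 exonic bases with *Gm17494* on the opposite strand, which was at 145, 142 and 157 CPM in control and at 159, 126 and 142 CPM in MaeaCsf1r-Cre libraries. That overlapping gene did not share the high control replicate 1 of *Gclm*, but how the reads in the shared bases were divided is not known, so part of the *Gclm* level is uncertain. The pseudogene *Gm6061*, which shares 244 bases with *Gclm* on the same strand, was at or next to 0 in all libraries.

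*Txnrd1* (chr10:82833951-82897712), the cytosolic thioredoxin reductase, was at 88.1, 100.6 and 111.5 CPM in control and at 93.5, 93.6 and 93.4 CPM in MaeaCsf1r-Cre libraries. The MaeaCsf1r-Cre libraries were nearly equal to each other and lay inside the control range. Its means were 100.1 ± 11.7 and 93.5 ± 0.110 CPM (SD, n = 3 each), with a log2 change of -0.09 (SE 0.12, 95% interval -0.38 to 0.20, limma adjusted p = 0.967).

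*Prdx1* (chr4:116685544-116700822), a cytosolic peroxiredoxin that reduces hydrogen peroxide, was the highest of the 10, also per length of exon. It was at 412, 392 and 459 CPM in control and at 475, 390.5 and 419 CPM in MaeaCsf1r-Cre libraries. The groups covered nearly the same range, and the log2 change was 0.02 (SE 0.13, 95% interval -0.27 to 0.31, limma adjusted p = 0.988) between means of 421 ± 34.4 and 428 ± 43.1 CPM (SD, n = 3 each).

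The dismutases turn superoxide into hydrogen peroxide, *Sod1* in the cytosol and *Sod2* in mitochondria. *Sod1* (chr16:90220754-90226329) was at 49.1, 42.0 and 49.99 CPM in control and at 62.0, 51.2 and 56.2 CPM in MaeaCsf1r-Cre libraries. It was higher in 3 of 3 same-numbered pairs and, alone among the 10, had every MaeaCsf1r-Cre library above every control library, as 2.49% of all genes tested did, although the lowest MaeaCsf1r-Cre and highest control values, 51.2 and 49.99 CPM, were close. Every MaeaCsf1r-Cre library lay below every control library for 0 of the 10, against 6.06% of all genes. The means of *Sod1* were 47.0 ± 4.38 and 56.5 ± 5.43 CPM (SD, n = 3 each). Its log2 change of 0.26 (SE 0.14, 95% interval -0.06 to 0.57) had an unadjusted p of 0.0949 and an adjusted p of 0.967 by limma. With the replicate block these became 0.0350 and 0.325, which made *Sod1* the 1 gene of the 10 with an unadjusted p under 0.05 in that fit, where 13.9% of all genes had one. With the length correction added to the block, the log2 change of *Sod1* was 0.20 and its unadjusted p 0.0788.

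*Sod2* (chr17:13006846-13040063) was at 125, 100.4 and 109.7 CPM in control and at 134, 104 and 108 CPM in MaeaCsf1r-Cre libraries. Same-numbered libraries were close to each other and replicate 1 was the highest of either group. Between means of 112 ± 12.2 and 115 ± 16.1 CPM (SD, n = 3 each) the log2 change was 0.04 (SE 0.14, limma adjusted p = 0.981). Within a library, the log2 ratio of *Sod2* to *Sod1* was 1.33, 1.24 and 1.12 in control libraries 1 to 3, against 1.10, 1.01 and 0.93 in MaeaCsf1r-Cre libraries 1 to 3. The ratio was lower in every MaeaCsf1r-Cre library, by 0.22 on average, from 1.23 ± 0.10 to 1.01 ± 0.09 (SD, n = 3 each), and the exact two-sided permutation p of 0.1 is the smallest that 3 against 3 libraries can give. After correction for transcript length this difference was 0.0020, and *Sod1* has by far the shortest exons of the 10 (641 bases, against 5861 for *Sod2*).

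*Cat* (chr2:103453849-103485160), the catalase that splits hydrogen peroxide in peroxisomes, was at 121, 146 and 128 CPM in control and at 115, 108 and 144 CPM in MaeaCsf1r-Cre libraries. It was lower in pairs 1 and 2 and higher in pair 3, and the groups overlapped. The means were 132 ± 12.5 and 123 ± 19.1 CPM (SD, n = 3 each), with a log2 change of -0.11 (SE 0.14, 95% interval -0.44 to 0.23, limma adjusted p = 0.967).

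**Figure D2:**
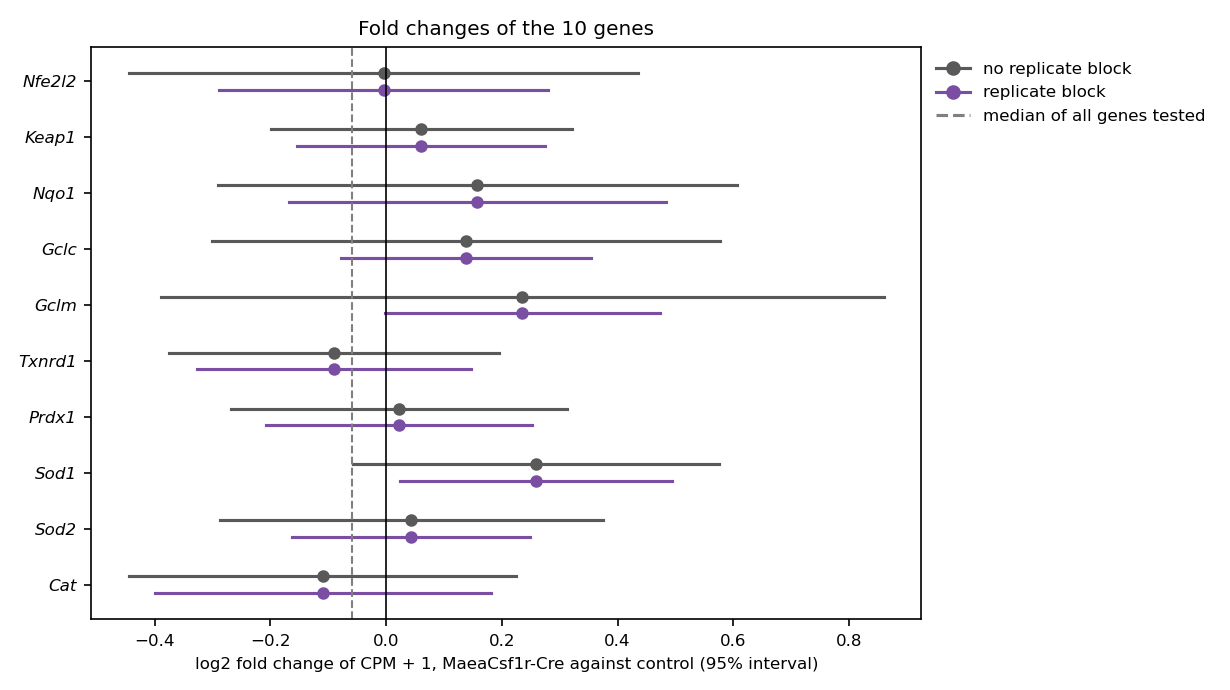
Log2 fold change of CPM + 1 in MaeaCsf1r-Cre against control HSCs for each gene, with its 95% interval, without (grey) and with (purple) the replicate number as a block; the dashed line marks the median of all genes tested, -0.06. The grey intervals all include 0, and with the block that of *Sod1* does not.

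Over same-numbered pairs, 3 of the 10 genes (*Gclc*, *Gclm* and *Sod1*) were higher in MaeaCsf1r-Cre HSCs in 3 of 3 pairs, against 13.2% of all genes tested. None was lower in 3 of 3 pairs (0 of 10), against 23.5% of all genes. With the replicate block in the model, limma called 0 of the 10 at an adjusted p under 0.05, their adjusted p running from 0.325 to 0.993.

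Per kilobase of exon, which allows levels of different genes to be compared, *Prdx1* was first with 165 ± 13.5 CPM per kb in control and 168 ± 16.9 CPM per kb in MaeaCsf1r-Cre HSCs. *Sod1* followed with 73.4 ± 6.83 and 88.1 ± 8.47 CPM per kb, and these 2 genes kept clear of their neighbours in all 6 libraries. *Cat* (50.4 ± 4.78 in control), *Nfe2l2* (40.6 ± 6.70), *Gclm* (39.5 ± 12.4), *Gclc* (27.4 ± 4.27), *Txnrd1* (24.6 ± 2.87), *Keap1* (23.9 ± 0.668) and *Sod2* (19.0 ± 2.08 CPM per kb, SD, n = 3) came next, and each overlapped its neighbour in this order over the 6 libraries. *Nqo1* was last with 11.5 ± 1.74 and 13.0 ± 2.46 CPM per kb and lay below *Sod2* in every library. Exon lengths were those of all annotated basic transcripts merged, which understates the level of a gene with long alternative exons.

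Of the 10 genes, 9 varied more with the replicate number than with the genotype. Of the sum of squares of log2(CPM + 1) over the 6 libraries, the replicate number took 94.3% for *Sod2*, 88.2% for *Gclc*, 85.5% for *Gclm*, 74.3% for *Nfe2l2* and 71.9% for *Nqo1*. The genotype took the larger share only for *Sod1*, 57.7% against 38.2%. The replicate number has more levels than the genotype, so noise alone tends to give it the larger share. For *Cat* the rest took 60.3%, beside 27.5% for the replicate number and 12.2% for the genotype. For *Txnrd1* the rest and the replicate number were level, at 41.1% and 41.2%. Over the 10 genes the median share was 11.1% for the genotype and 64.2% for the replicate number, and over all genes tested these were 12.8% and 58.8%, so the genes were near the background in both.

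In *Nfe2l2*, *Nqo1*, *Gclc*, *Gclm* and *Sod2*, 5 of the 10, both libraries numbered 1 were above the other 4 libraries, as was so for 17.7% of all genes tested. The mean of the libraries numbered 1 exceeded that of the other 4 by 1.62 times for *Gclm*, 1.33 times for *Gclc*, 1.31 times for *Nfe2l2*, 1.304 times for *Nqo1* and 1.224 times for *Sod2*. The erythroid marker sum was highest in the same libraries, at 4507 and 4805 CPM against 983 to 2213 CPM in the other 4, and 6 of its 10 markers had both libraries numbered 1 highest. Most of this sum was the single gene *Car1* in every library. The HSC marker sum was lowest in the libraries numbered 1, at 1124 and 781 CPM against 1145 to 1803 CPM, with 6 of 10 markers lowest in both. Between the genotypes, 8 of the 10 HSC markers lay below 0 (80%, against 60.9% of all genes), with a median log2 change of -0.47. The length correction took this median to -0.31. At a limma unadjusted p under 0.05 there were 0 in either direction. With the block 7 were lower (70%, against 10.8% of all genes) and 1 higher (10%, against 3.11%). The part of these cell markers in the levels of the 5 genes was not tested. Without both libraries numbered 1, the median log2 change of the 10 genes was 0.03.

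**Figure D3:**
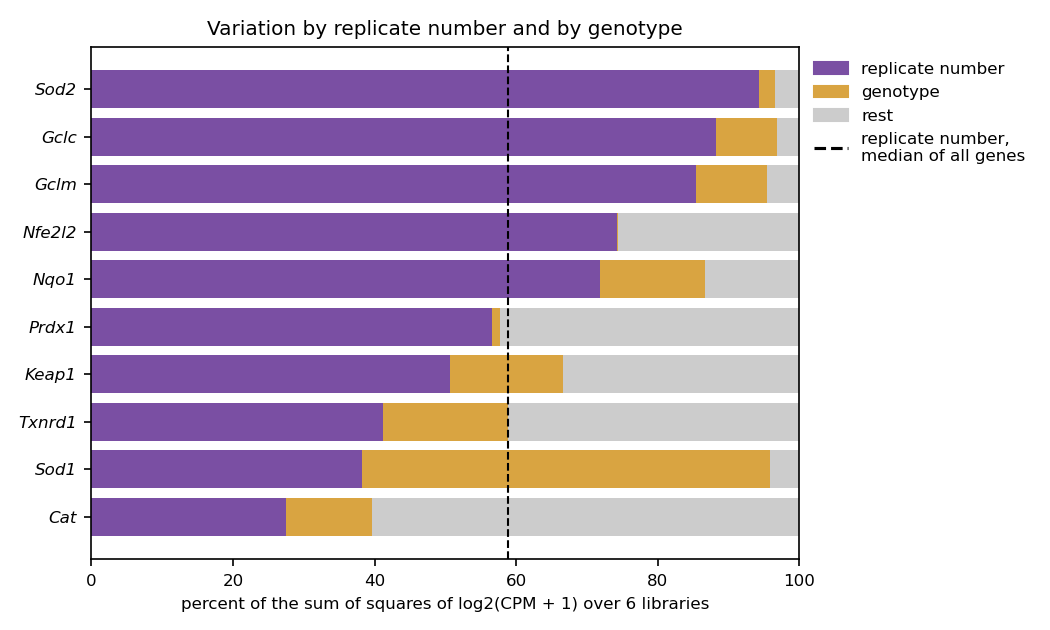
Share of the sum of squares of log2(CPM + 1) over the 6 libraries taken by the replicate number (purple), the genotype (yellow) and the rest (grey) for each gene; the dashed line marks the median share of the replicate number over all genes tested, 58.8%. *Sod1* is the only gene whose genotype share (57.7%) exceeds that of the replicate number.

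The genes around Nrf2 were followed in 5 further lists, with 0 genes at a limma adjusted p under 0.05 in any of them, with or without the block, and with *Hmox1* the single exception when the correction for transcript length was added to the block. Over all genes tested, 60.9% lay below 0, 3.19% were lower and 0.803% higher at an unadjusted p under 0.05, and with the block these last shares were 10.8% and 3.11%. In 3 of 3 pairs 23.5% were lower and 13.2% higher. The length correction took the share below 0 to 43.8% of the genes that have a length, so the sign of a small shift in a list depends on it.

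Of 15 partners and regulators of Nrf2, 14 were tested, 10 of them (71.4%) below 0, with a median log2 change of -0.15, which the length correction moved to -0.0015. At an unadjusted p under 0.05 there were 0 in either direction, and with the block 2 were lower (*Cul3* and *Nfe2*) and 0 higher. In 3 of 3 pairs 4 of 14 (28.6%) were lower, near the 23.5% of all genes, and 0 were higher. *Cul3*, the scaffold of the ligase that Keap1 serves, was lower in every MaeaCsf1r-Cre library, with means of 82.9 ± 1.55 CPM in control HSCs and 69.6 ± 10.8 CPM in the others (SD, n = 3 each), or a log2 change of -0.26 (SE 0.14, limma adjusted p = 0.967) that the length correction took to -0.12. *Nfe2*, the haematopoietic relative of Nrf2, had a log2 change of -0.28 and was lower in 3 of 3 pairs, and *Sqstm1*, whose p62 protein sequesters Keap1, had one of -0.17 (-0.08 after the length correction), with overlapping groups.

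Among 19 other Nrf2 targets, all tested, 12 were below 0 (63.2%, against 60.9% of all genes) and the median log2 change was -0.11, or -0.0072 after the length correction. At an unadjusted p under 0.05, 2 of 19 were lower and 0 higher, and with the block 4 were lower and 1 higher. *Hmox1*, the haem oxygenase that frees iron from haem and is high in macrophages, was at 9.95, 8.86 and 15.5 CPM in control and at 0.36, 0.32 and 5.44 CPM in MaeaCsf1r-Cre libraries. It was lower in every MaeaCsf1r-Cre library, and replicate 3 was the highest of each group. The log2 change was -2.42 (SE 0.59, limma unadjusted p = 0.0035, adjusted p = 0.967, and adjusted p = 0.0874 with the block). With the correction for transcript length added to the block, its log2 change was -2.39 and its limma adjusted p 0.0433. *Me1*, which makes NADPH, had a log2 change of -1.001 and *Ephx1*, an epoxide hydrolase, of -0.71, both at under 5 CPM in every library, with overlapping groups.

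Of 33 genes of the glutathione system, 26 were tested, with a median log2 change of -0.05 (-0.0043 after the length correction). At an unadjusted p under 0.05, 1 of 26 was lower and 0 higher, and with the block 2 were lower and 1 higher. In 3 of 3 pairs 5 were higher (19.2%, against 13.2% of all genes) and 4 lower (15.4%, against 23.5%). *Slc3a2*, the heavy chain of the cystine transporter that supplies glutathione synthesis, was higher in every MaeaCsf1r-Cre library, with means of 128 ± 5.60 CPM in control HSCs and 144 ± 4.13 CPM in the others (SD, n = 3 each), or a log2 change of 0.17 (SE 0.10, limma adjusted p = 0.967). Its partner in that transporter, *Slc7a11*, was too low to be tested, at 1.21, 0.28 and 0.44 CPM in control and at 0.296, 0.27 and 0.02 CPM in MaeaCsf1r-Cre libraries, lower in 3 of 3 pairs with overlapping groups. *Mgst2*, a microsomal glutathione transferase at 0.69 to 2.07 CPM, was lower in every MaeaCsf1r-Cre library with a log2 change of -0.57, and *Gsta4* had one of -0.49 with overlapping groups.

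The 16 thioredoxins, peroxiredoxins and their reductases were all tested and had a median log2 change of 0.04, with 9 above 0. After the length correction the median was 0.12. At an unadjusted p under 0.05, 1 of 16 was lower (6.25%, against 3.19% of all genes) and 0 higher, and with the block 4 were lower (25%, against 10.8%) and 0 higher. The 1 gene without the block was *Srxn1*, the sulfiredoxin that repairs overoxidised peroxiredoxins, at 25.2, 35.2 and 31.5 CPM in control and at 11.6, 18.6 and 26.8 CPM in MaeaCsf1r-Cre libraries. It was lower in 3 of 3 pairs, but MaeaCsf1r-Cre replicate 3 lay above control replicate 1, and its log2 change was -0.72 (SE 0.29, limma adjusted p = 0.967, and 0.221 with the block). *Prdx5*, a mitochondrial and peroxisomal peroxiredoxin, was lower in every MaeaCsf1r-Cre library with a log2 change of -0.25 (SE 0.13). *Txnip*, the thioredoxin inhibitor, had a log2 change of -0.74 (SE 0.38) with overlapping groups.

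**Figure D4:**
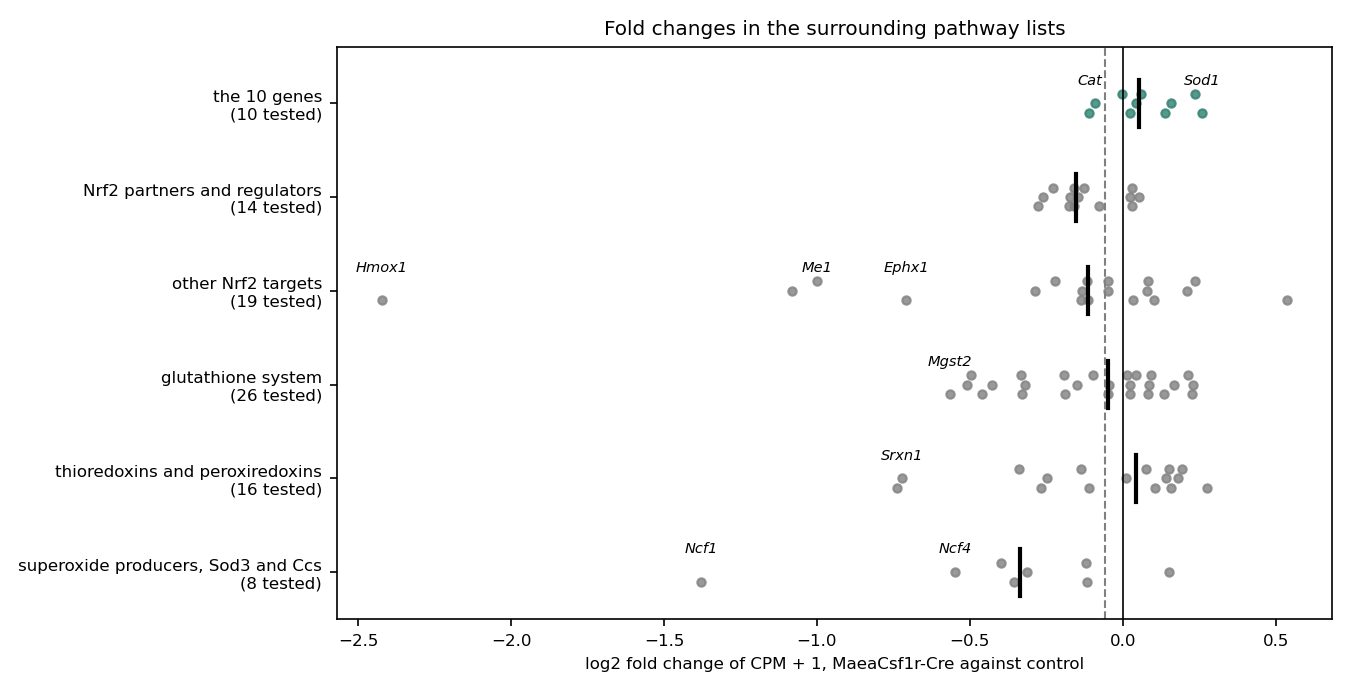
Log2 fold changes of CPM + 1 (MaeaCsf1r-Cre against control) of the tested genes, 1 point per gene, in the 10 genes described here and in the 5 further lists; black ticks give each list's median and the dashed line the median of all genes tested. The 10 genes lie between -0.11 and 0.26, while *Hmox1* (-2.42) and *Ncf1* (-1.38) lie far to the left.

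Of 12 genes that make superoxide or serve the dismutases, 8 were tested, with a median log2 change of -0.34 and 7 of them below 0. After the length correction the median was -0.25 and 5 of 8 were below 0. At an unadjusted p under 0.05, 2 of 8 were lower (25%, against 3.19% of all genes) and 0 higher, and with the block 5 were lower (62.5%, against 10.8%) and 0 higher. In 3 of 3 pairs 5 were lower (62.5%, against 23.5% of all genes) and 1 higher. This list, like the other lists, was chosen with earlier results of these data known, so its shares describe it and do not test it. *Ncf1*, the organiser subunit p47phox of the phagocyte NADPH oxidase, was at 12.5, 14.8 and 8.15 CPM in control and at 3.18, 4.04 and 4.26 CPM in MaeaCsf1r-Cre libraries. Every MaeaCsf1r-Cre library lay below every control library, with a log2 change of -1.38 (SE 0.25, limma adjusted p = 0.539, and 0.141 with the block). *Cyba*, the p22phox membrane subunit, was also lower in every MaeaCsf1r-Cre library, with means of 49.8 ± 4.23 CPM in control HSCs and 38.6 ± 2.26 CPM in the others (SD, n = 3 each), or a log2 change of -0.36 (SE 0.13, limma adjusted p = 0.967). *Ncf4*, the p40phox subunit, had a log2 change of -0.55 with overlapping groups. *Cybb*, the catalytic subunit of this oxidase, was too low to be tested. It was at 3.88, 0.50 and 0.26 CPM in control and at 0.11, 0 and 0 CPM in MaeaCsf1r-Cre libraries.

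Macrophages express *Hmox1* and the NADPH oxidase strongly, so their markers are set beside these genes. Of 10 macrophage markers, 9 had a lower mean in MaeaCsf1r-Cre HSCs, and of the 7 tested, 4 were lower in every MaeaCsf1r-Cre library (57.1%, against 6.06% of all genes). The complement gene *C1qb* was at 8.98, 3.79 and 5.37 CPM in control and at 0.03, 0 and 0.47 CPM in MaeaCsf1r-Cre libraries. In the fit with the length correction and the block, *C1qb* (log2 change -2.56) and *C1qc* (-2.50) each had a limma adjusted p of 0.0354. *Hmox1* had 0.0433 in that fit, where 16 genes in all had an adjusted p under 0.05. *Vcam1* was at 28.5, 2.60 and 26.7 CPM in control and at 0.53, 0 and 30.0 CPM in MaeaCsf1r-Cre libraries, highest of all in the same MaeaCsf1r-Cre replicate 3 in which *Hmox1* was highest of its group. Within the control group the marker sum was lowest in replicate 2 (48.2 CPM), where *Ncf1* was highest (14.8 CPM). It was highest in replicate 1 (143 CPM), and *Hmox1* was highest in replicate 3 (15.5 CPM). Within the MaeaCsf1r-Cre group the sum (99.2 CPM), *Hmox1* (5.44 CPM) and *Ncf1* (4.26 CPM) were all highest in replicate 3. The part of macrophage RNA in the lower *Hmox1* and *Ncf1* was not tested.

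**Figure D5:**
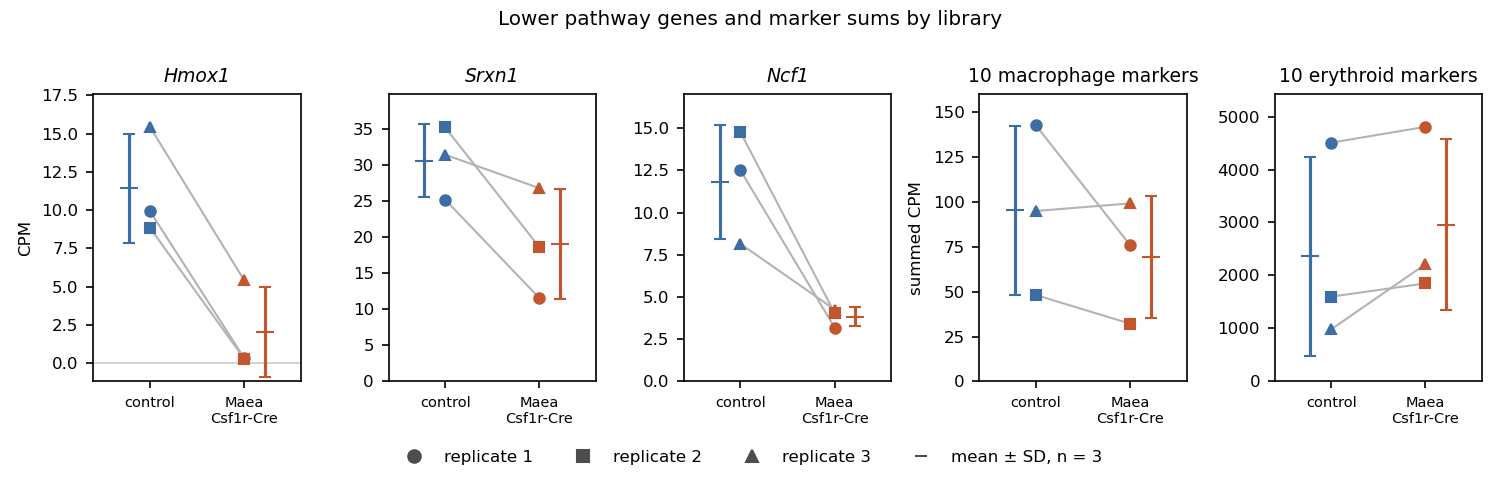
CPM of *Hmox1*, *Srxn1* and *Ncf1* and summed CPM of 10 macrophage and 10 erythroid markers in each control (blue) and MaeaCsf1r-Cre (orange) library, with grey lines between same-numbered libraries and bars for the mean ± SD (n = 3). *Hmox1* and *Ncf1* are lower in every MaeaCsf1r-Cre library, and the erythroid sum is highest in replicate 1 of both groups (4507 and 4805 CPM). Most of the erythroid sum is *Car1*.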

How the data were processed

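The deposited table holds CPM for each of the 6 libraries. The authors prepared complementary DNA with the SMART-Seq v4 kit, tagged it with Nextera XT and sequenced single-end reads on an Illumina NextSeq. Per the labels and the study's methods, reads were trimmed with Trim Galore, aligned to mm10 with STAR 2.5.3a, quantified to Ensembl release 83 and normalised in Partek Flow. An offset of 0.0001, present in every deposited value, was subtracted. Of 46959 entries 44119 matched GENCODE release 21 of GRCm38 by symbol, 27 symbols had been turned into dates and 4 entries shared a symbol. Depth was estimated from the steps between low CPM values. Between 77.0 and 79.6% of low values lay within 0.1 read of a whole number, and no count test was run since whole reads could not be recovered. A signal of 3 reads was 0.0492 to 0.0910 CPM, which covers counting error only.

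A gene entered the test if 3 or more libraries had a CPM of 1 or above. limma's moderated test, two-sided and with the mean-variance trend of the linear model, was run on log2(CPM + 1), a scale that understates changes of low genes, with Benjamini-Hochberg adjustment over 12955 genes at a threshold of 0.05. The study's methods name no test per gene. Ratios were compared by an exact two-sided permutation test over libraries. Each library pools 2 mice, and p-values measure the spread between such pools. The replicate numbers come from the sample titles, and no source says what they share. Same-numbered control and MaeaCsf1r-Cre libraries deviated together (Pearson's r across genes of 0.627, 0.523 and 0.397, against -0.459 to -0.0538 for different numbers), so a second fit had the replicate number as a block.

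The 10 genes, the 5 pathway lists and the marker lists were chosen with earlier results of these data known. Named genes are the 10, the 3 tested genes of smallest unadjusted p in each pathway list, *Maea*, *Csf1r*, overlapping genes, and markers set beside a result. *Slc7a11* and *Cybb* were added later as partners of named genes. The alternatives were the block, quantile normalization, median-ratio rescaling, a pseudocount of 0.1, a minimum CPM of 10 or none, no trend, a loess correction for transcript length (span 0.5) with and without the block, and each library left out in turn. Leaving out both libraries numbered 1 was added after seeing the data. The fit was tested on simulated data. The work was done in R 4.3.3 with limma 3.58.1, and in Python 3.11.15 with pandas 2.3.3, matplotlib 3.10.9 and numpy 2.4.6.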

Additional observations from a re-analysis of the deposited data

How the results depend on the processing

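Of 160 log2 fold changes of the 10 genes under 16 alternatives each, 146 kept their direction, 14 turned and 0 passed the threshold (lowest limma adjusted p 0.209). The changed filters, the replicate block and the fit without a trend cannot alter these log2 changes, so there the direction was bound to stay. Adding the block to the length correction likewise repeats its values. The count of kept directions is therefore not a count of separate checks. *Keap1*, *Nqo1*, *Gclm*, *Sod1* and *Cat* kept their sign under every alternative run, but their size moved in part with the single library left out. With both libraries numbered 1 left out, *Gclm* was at 0.25. *Gclm* ranged from 0.0098 (without MaeaCsf1r-Cre replicate 1) to 0.48 (without control replicate 1; 0.45 without MaeaCsf1r-Cre replicate 2), *Nqo1* from 0.025 (without MaeaCsf1r-Cre replicate 1) to 0.28 (without MaeaCsf1r-Cre replicate 2), *Cat* from -0.23 (without MaeaCsf1r-Cre replicate 3) to -0.025 (without MaeaCsf1r-Cre replicate 2), *Keap1* from 0.026 (without MaeaCsf1r-Cre replicate 3) to 0.20 (length correction) and *Sod1* from 0.18 to 0.33. *Nfe2l2* turned to 0.058 with median ratios, 0.0073 with quantile normalization and 0.073 with the length correction, with or without the block, and ranged from -0.14 to 0.17 with 1 library left out (0.12 without control replicate 1, 0.17 without MaeaCsf1r-Cre replicate 2). *Txnrd1* turned to 0.040 with the length correction, with or without the block. *Gclc* ranged from -0.019 (without MaeaCsf1r-Cre replicate 1) to 0.30 with 1 library left out. *Prdx1* ranged from -0.055 (without MaeaCsf1r-Cre replicate 1) to 0.086, with -0.027 without control replicate 2, and was -0.069 without both libraries numbered 1. *Sod2* ranged from -0.067 (without MaeaCsf1r-Cre replicate 1) to 0.13, with -0.029 without control replicate 2. The median of the 10 genes lay between -0.04 (without MaeaCsf1r-Cre replicate 1) and 0.19 (length correction). The ratio of *Gclm* to *Gclc* differed by -0.0060 (without control replicate 3) to 0.23, that of *Keap1* to *Nfe2l2* by -0.043 (without MaeaCsf1r-Cre replicate 2; -0.040 without control replicate 1) to 0.17, and that of *Sod2* to *Sod1* by 0.0020 with the length correction.

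Over all genes tested, the replicate block left the count at an adjusted p under 0.05 at 1 and moved that at an unadjusted p from 517 to 1805. With the length correction and the block these counts were 16 and 1691, with a filter at a CPM of 10 they were 0 and 302, and without a filter the unadjusted count was 1128. Without both libraries numbered 1 the adjusted count was 0. With 1 library left out, they ranged from 0 to 1 and from 241 (without control replicate 2) to 964 (without control replicate 1). The causes were not tested. With 3 libraries a group, the 95% interval of each of the 10 genes without the block included 0.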

Other observations

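Several enzymes outside the 10 genes, chosen after their values were seen, were also highest in the libraries numbered 1. *Blvrb*, a biliverdin reductase that is abundant in red cells, was at 271, 109 and 115 CPM in control and at 341, 142 and 214 CPM in MaeaCsf1r-Cre libraries. It was higher in 3 of 3 same-numbered pairs, with a log2 fold change of 0.54 (standard error 0.41, limma adjusted p = 0.967, and 0.218 with the replicate block), and both libraries numbered 1 stood above the other 4. *Prdx2*, the main peroxiredoxin of red cells, was at 585, 389 and 331 CPM in control and at 617, 402 and 453 CPM in MaeaCsf1r-Cre libraries, again higher in 3 of 3 pairs. *Txnrd2*, the mitochondrial thioredoxin reductase, was at 68.7, 47.7 and 44.2 CPM in control and at 77.9, 51.1 and 65.2 CPM in MaeaCsf1r-Cre libraries. *Txnl1*, *Gpx4*, *Prdx3*, *Prdx6*, *Txn2*, *Taldo1* and *Tkt* were among the other genes highest in both libraries numbered 1. Any part of red cell precursors in these levels was not tested. Of the 16 thioredoxins and peroxiredoxins, 7 (43.8%) had both libraries numbered 1 highest, against 17.7% of all genes tested. The counts were 6 of 26 (23.1%) in the glutathione system, 6 of 19 (31.6%) in the other Nrf2 targets, 1 of 14 (7.14%) in the partners and regulators of Nrf2, and 0 of 8 in the superoxide genes. *Car1*, the erythroid carbonic anhydrase, was at 3356, 1210 and 617 CPM in control and at 3645, 1402 and 1486 CPM in MaeaCsf1r-Cre libraries. It made up most of the erythroid marker sum in every library.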
